A study of Mus musculus with 6 samples.

Results

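The expression of 10 genes of the TGF-beta pathway was examined in LSKs of irradiated Tespa1+/+ and Tespa1-/- mice. The genes were taken by name and comprised the ligand Tgfb1, the receptors Tgfbr1, Tgfbr2 and Tgfbr3, the signal transducers Smad2, Smad3 and Smad4, the inhibitory Smad7, and the corepressors Skil and Tgif1. All 10 were found among the 55487 genes of the table, with 1 row each. LSKs (Lin- Sca-1+ c-Kit+) are the bone marrow fraction that holds hematopoietic stem cells (HSCs) and early progenitors. The series held 6 RNA-sequencing libraries of such cells, 3 from Tespa1+/+ (wild-type) and 3 from Tespa1-/- mice. Both groups were young adult male mice on a C57BL/6 background, and the LSKs of both were sorted in the second week after sublethal total body irradiation, so no unirradiated control was compared here. The Tespa1-/- mice carried the Tespa1tm1Smoc allele, for which no restriction to a cell type was described. The labels left unsaid if each replicate came from a single mouse or from pooled mice, and the p-values therefore measure only the spread between these libraries.

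TGF-beta is secreted in a latent complex and, once released, binds the type II receptor, which then phosphorylates the type I receptor. The active type I receptor phosphorylates Smad2 and Smad3, and these enter the nucleus together with Smad4 to regulate target genes, while Smad7 and the corepressors Skil and Tgif1 restrain the response. In bone marrow, TGF-beta is known as a signal that holds HSCs in quiescence.

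The targeted gene was inspected first. Levels are given as CPM, normalised read counts scaled to a common library total. Wild-type LSKs had 34.4 ± 1.62 CPM of Tespa1 and Tespa1-/- LSKs 14.6 ± 0.634 CPM (SD, n = 3 each), so that transcript remained at 42.5% of the wild-type level. Of the sort markers, Kit was present in every library but fell by 0.97 on the log2 scale in Tespa1-/- LSKs, whereas Ly6a, which encodes Sca-1, ranged from 43.4 to 63.8 CPM in Tespa1+/+ and from 38.2 to 44.2 CPM in Tespa1-/- libraries. The total count was between 12856630 and 30576981 per library, and the lowest count of any of the 10 genes in any library was 102.

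Promoter sequences are given for the ligand, its signalling receptors and Smad3, so that the genes described here can be seen at their starts. RefSeq windows were matched for 5 of the 10 genes, namely Tgfb1, Tgfbr1, Tgfbr2, Smad3 and Tgif1. Each line holds the 250 bases before the start that RefSeq places on GRCm38, read 5′ to 3′ on the strand of the gene, with matches to the searched letters in capitals. For Tgfbr1, which has 2 windows, the outermost is shown. The Tgfb1 window lies at chr7:25686752-25687001 on the plus strand, that of Tgfbr1 at chr4:47352972-47353221 on the plus strand, that of Tgfbr2 at chr9:116175364-116175613 on the minus strand and that of Smad3 at chr9:63757995-63758244 on the minus strand.
Tgfb1: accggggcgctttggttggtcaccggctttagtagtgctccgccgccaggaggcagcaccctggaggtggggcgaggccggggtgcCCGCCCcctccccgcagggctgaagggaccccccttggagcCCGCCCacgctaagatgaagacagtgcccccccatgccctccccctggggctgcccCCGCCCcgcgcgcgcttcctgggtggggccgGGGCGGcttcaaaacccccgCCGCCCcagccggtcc
Tgfbr1: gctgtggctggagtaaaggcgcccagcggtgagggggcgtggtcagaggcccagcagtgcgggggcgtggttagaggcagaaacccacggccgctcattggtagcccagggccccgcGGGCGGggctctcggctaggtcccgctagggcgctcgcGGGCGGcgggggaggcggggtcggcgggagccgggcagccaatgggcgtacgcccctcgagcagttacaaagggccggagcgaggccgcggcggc
Tgfbr2: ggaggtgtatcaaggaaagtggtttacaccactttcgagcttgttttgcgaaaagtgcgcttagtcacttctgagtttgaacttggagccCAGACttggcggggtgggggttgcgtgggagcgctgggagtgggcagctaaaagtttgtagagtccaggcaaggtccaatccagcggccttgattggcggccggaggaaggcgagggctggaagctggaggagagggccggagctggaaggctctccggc
Smad3: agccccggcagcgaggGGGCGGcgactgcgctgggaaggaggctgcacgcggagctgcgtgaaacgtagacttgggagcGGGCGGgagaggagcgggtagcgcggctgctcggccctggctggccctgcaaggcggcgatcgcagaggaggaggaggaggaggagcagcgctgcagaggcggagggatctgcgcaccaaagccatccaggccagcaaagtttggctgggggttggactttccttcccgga
The letters searched on both strands were CAGAC, the box bound by Smad proteins, then GGGCGG, known as the GC box, then TGTCA, the box bound by Tgif1, and finally CACGTG, an E-box. The motifs were counted independently, overlaps included. The Tgfb1 window held 5 GC boxes at a GC content of 75.2%. Those of Tgfbr1 and Smad3 each held 2 GC boxes, at GC contents of 74.8% and 69.2%. The window of Tgfbr2 had a GC content of 58.4% and held 1 match to CAGAC but none to the GC box. In Tgif1, whose window is not shown, CAGAC and the Tgif1 box were found once each. None of the 5 windows held CACGTG. Among 32851 promoter windows of the same length, 42.2% held CAGAC, 32.7% GGGCGG, 40% TGTCA and 6.02% CACGTG, so each of the matched motifs is common.

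Levels of the members in wild-type LSKs were compared per kilobase of union exon (all annotated exons of a gene merged), since counts grow with length. Tgfb1 had the highest level, at 100.8 ± 3.17 CPM per kb (SD, n = 3). It was followed by Smad7 at 15.4 ± 1.39, Smad4 at 15.2 ± 2.47, Smad3 at 13.2 ± 0.0781, Tgif1 at 9.42 ± 0.308 and Tgfbr1 at 6.82 ± 0.225 CPM per kb. The co-receptor Tgfbr3 (4.72 ± 0.373), Tgfbr2 (4.71 ± 0.0814), Smad2 (3.72 ± 0.184) and Skil (2.19 ± 0.2) had the lowest levels, in CPM per kb. Only the neighbours Smad7 and Smad4 and the neighbours Tgfbr3 and Tgfbr2 overlapped between libraries in this order. In Tespa1-/- LSKs the order was Tgfb1, Smad4, Smad7, Smad3, Tgif1, Tgfbr1, Smad2, Tgfbr2, Tgfbr3 and Skil, and no neighbours overlapped. The ligand thus stayed first and Skil last, and Smad2 lay above Tgfbr2 and Tgfbr3 in the Tespa1-/- order. Other places in these orders depended on the length used. The deposited FPKM values, scaled to another length per gene, put Smad3 (13.2 ± 0.0744) above Smad4 (10.2 ± 1.66) and Smad7 (9.31 ± 0.828) in wild type. By FPKM, Tgfbr1 (5.04 ± 0.171) also lay above Tgif1 (4.51 ± 0.15) there (SD, n = 3).

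**Figure D1:**
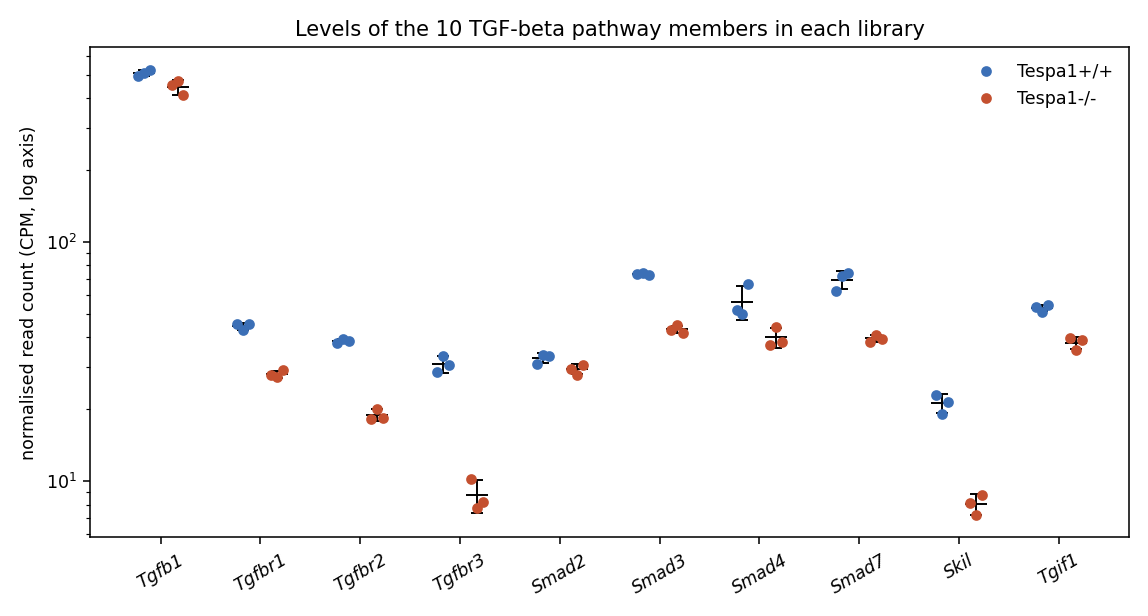
Normalised read counts of the 10 TGF-beta members in each library, in CPM on 1 log axis, with blue points for Tespa1+/+ and red for Tespa1-/-. Points are the 3 libraries of each group and bars are the mean ± SD. For every member the Tespa1-/- points lie below all Tespa1+/+ points, with the narrowest gaps for Smad2 and Tgfb1.

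Next, the groups were compared for each gene with edgeR's quasi-likelihood test, with Benjamini-Hochberg adjustment over the 15332 genes that passed the low-count filter. A gene was called when its adjusted p was under 0.05 and its fold was over 1.5. All 10 members passed the filter. Of these, 6 fell in Tespa1-/- LSKs (Tgfbr1, Tgfbr2, Tgfbr3, Smad3, Smad7 and Skil) and 0 rose, and 0 were higher with DESeq2 or at an unadjusted p under 0.05 as well, while 19.2% of all genes tested were called lower and 14% higher. At an adjusted p under 0.05 with any fold, 9 of the 10 were lower, with Smad2 as the exception, against 31.8% of all genes. The median log2 fold change (Tespa1-/- over Tespa1+/+) of the 10 members was -0.72, and that of all genes tested was 0. In all 10 members the Tespa1-/- libraries lay below every Tespa1+/+ library. Such separation was found for 34.6% of all genes in this direction.

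Tgfb1 on chromosome 7 (25687002 to 25705077, plus strand), the TGF-beta isoform best known from blood cells, had 493, 507 and 525 CPM in the Tespa1+/+ libraries and 451, 469 and 410 CPM in the Tespa1-/- libraries. The groups did not overlap, but the difference was small. The log2 fold change was -0.20 (SE 0.052, edgeR adjusted p = 0.0125), or 87.2% of the wild-type level, and it was not called. A lower log2 fold change than that of Tgfb1 was found for 38.4% of all genes tested. The other isoforms were scarce. Tgfb2 had counts of 4, 4 and 2 in wild-type and 0, 0 and 2 in Tespa1-/- libraries, and Tgfb3 had 8, 14 and 16 against 4, 5 and 0, so neither was tested.

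All 3 receptors fell. Tgfbr1 (chromosome 4, 47353222 to 47414931, plus strand), the type I receptor that carries the kinase acting on Smad2 and Smad3, had 45.3, 42.9 and 45.5 CPM in Tespa1+/+ and 27.7, 27.3 and 29.1 CPM in Tespa1-/- libraries. Every Tespa1-/- value lay well below the lowest wild-type value. The log2 fold change was -0.67 (SE 0.055, edgeR adjusted p = 4.26e-05), or 63.0% of wild type.

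Tgfbr2 (chromosome 9, 116084293 to 116175360, minus strand), the type II receptor that binds the ligand, had 37.8, 39.1 and 38.6 CPM in Tespa1+/+ and 18.2, 20.1 and 18.5 CPM in Tespa1-/- libraries. The 3 libraries of each group lay close together and the Tespa1-/- level was 49.1% of the wild-type level. The log2 fold change was -1.03 (SE 0.061, edgeR adjusted p = 9.87e-06).

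Tgfbr3 (chromosome 5, 107106570 to 107289629, minus strand), also called betaglycan, a co-receptor that presents ligand to the type II receptor, had 28.6, 33.5 and 30.6 CPM in Tespa1+/+ and 10.3, 7.71 and 8.23 CPM in Tespa1-/- libraries. This was the largest fall among the 10 members, to 28.4% of the wild-type level. The log2 fold change was -1.82 (SE 0.122, edgeR adjusted p = 1.65e-05), and 2.94% of all genes tested had a lower one. An annotated same-strand transcript, Gm43422, covers 297 bases of the Tgfbr3 exons, and counts there could be split or shared. None of the other 9 members shared exon bases with another annotated gene. The genes whose log2 CPM followed that of Tgfbr3 most closely over the 6 libraries, by Pearson's r, were Lck (0.999), Pign (0.999) and F2rl2 (0.999), which is a description of 2 groups of libraries set apart by 1 difference.

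Of the receptor-activated Smads, Smad3 fell and Smad2 was not called. Smad3 (chromosome 9, 63646767 to 63757994, minus strand) had 73.4, 73.8 and 73.0 CPM in Tespa1+/+ and 42.8, 44.9 and 41.7 CPM in Tespa1-/- libraries, with almost no spread among the wild-type libraries. Its log2 fold change was -0.77 (SE 0.044, edgeR adjusted p = 8.49e-06), or 58.8% of wild type. Smad2 (chromosome 18, 76241580 to 76310963, plus strand) had 30.8, 33.7 and 33.5 CPM against 29.5, 27.9 and 30.7 CPM. The highest Tespa1-/- and the lowest Tespa1+/+ libraries nearly touched. The log2 fold change of Smad2 was -0.16 (SE 0.065, edgeR adjusted p = 0.0711), or 89.8% of wild type. Its direction was not stable, as shown with gene length below.

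Smad4 (chromosome 18, 73639009 to 73703780, minus strand), the common partner of the receptor-activated Smads, had 52.1, 50.1 and 66.9 CPM in Tespa1+/+ and 37.3, 44.3 and 38.1 CPM in Tespa1-/- libraries. Wild-type replicate 3 was higher than the other two, and the spread was the widest of the 10 members in wild-type LSKs, with a coefficient of variation of 16.3%. Its log2 fold change, -0.50 (SE 0.124, edgeR adjusted p = 0.0101), did not reach the fold required for a call, and it was -0.35 (adjusted p = 0.0162) without wild-type replicate 3. Smad7 (chromosome 18, 75367529 to 75395935, plus strand), which blocks the type I receptor and is itself induced by the pathway, had 62.5, 72.0 and 74.3 CPM against 38.3, 41.0 and 39.4 CPM. All Tespa1-/- libraries lay within a narrow range far below wild type. On the log2 scale Smad7 fell by 0.81 (SE 0.073, edgeR adjusted p = 6.59e-05), to 56.8% of wild type.

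Among the corepressors, Skil (chromosome 3, 31095058 to 31122577, plus strand), which encodes SnoN and holds Smad complexes inactive, had 23.0, 19.1 and 21.5 CPM in Tespa1+/+ and 8.10, 7.23 and 8.79 CPM in Tespa1-/- libraries. Only Tgfbr3 fell further. The log2 fold change of Skil was -1.40 (SE 0.108, edgeR adjusted p = 3.25e-05), or 38.0% of wild type, and 5.73% of all genes tested had a lower one. Tgif1 (chromosome 17, 70844205 to 70853546, minus strand), a homeodomain corepressor of Smad2 and Smad3, had 53.4, 51.1 and 54.5 CPM against 39.6, 35.5 and 39.0 CPM. The groups were apart, but the log2 fold change, -0.48 (SE 0.059, edgeR adjusted p = 0.000332), did not reach the fold required for a call.

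**Figure D2:**
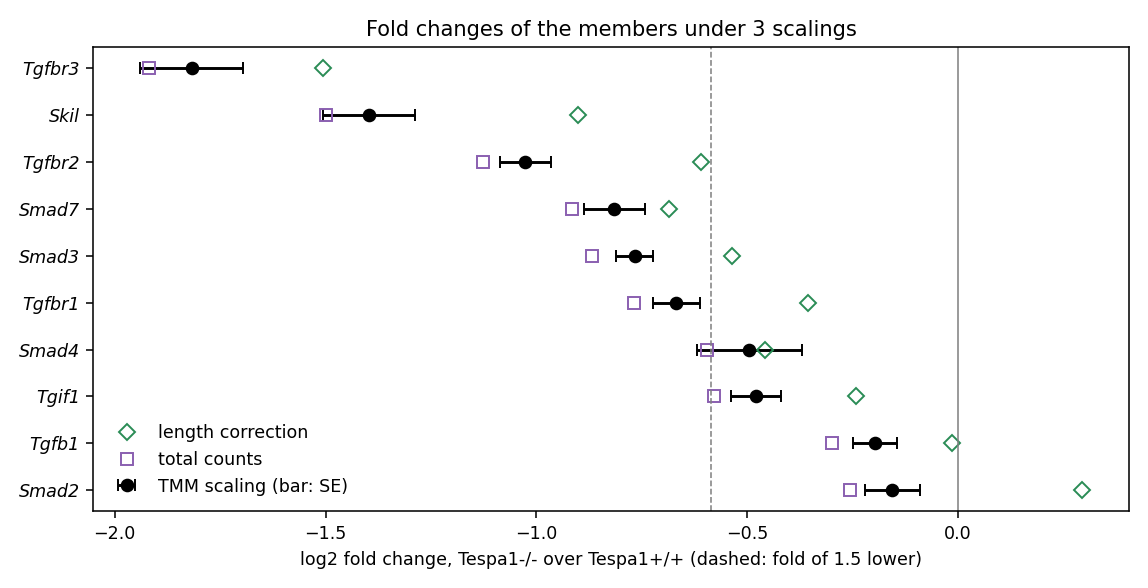
Log2 fold change of each member in Tespa1-/- over Tespa1+/+ LSKs under TMM scaling, total counts and length correction, with the dashed line at a fold of 1.5. Bars are the SE under TMM scaling. Tgfbr3 and Skil lie furthest to the left under each, and Smad2 is above 0 under length correction only.

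To determine whether the members changed by unequal amounts, 8 ratios of levels per kilobase were formed within each library. A ratio within a library does not depend on the scaling of libraries, but its size does depend on the lengths of both genes. The ratios were not corrected for the trend of fold change with gene length described below. Tgfbr2 (8187 bases) is longer than Tgfbr1 (6534) and Tgfb1 (5042), and Skil (9694) is longer than Tgif1 (5625). By contrast, Smad3 (5542) is shorter than Smad2 (8781), and Tgfbr3 (6545) and Tgfbr1 are of nearly the same length. The part of the length trend in the ratios was not tested. With 3 libraries against 3, the two-sided exact permutation test cannot go below p = 0.1, so none of the ratios can pass 0.05. The ratio of Smad3 to Smad2 was 3.77, 3.47 and 3.45 in wild-type libraries against 2.30, 2.55 and 2.15 after Tespa1 deletion. The groups were separate (exact permutation p = 0.1, 0.133 adjusted over the 8 ratios). The ratio of Tgfbr3 to Tgfbr1 went from 0.694 ± 0.0772 to 0.311 ± 0.0508 (SD, n = 3 each, exact permutation p = 0.1), and that of Tgfbr2 to Tgfbr1 from 0.691 ± 0.0333 to 0.540 ± 0.0432 (SD, n = 3 each, exact permutation p = 0.1). In these uncorrected ratios the receptors were thus also separate between groups relative to each other.

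Relative to the ligand, Tgfbr1 went from 0.0677 ± 0.00296 to 0.0490 ± 0.00515 and Tgfbr2 from 0.0467 ± 0.00118 to 0.0263 ± 0.00145 (SD, n = 3 each, exact permutation p = 0.1 for both). Skil to Tgif1 went from 0.232 ± 0.0163 to 0.123 ± 0.00716 (SD, n = 3 each, exact permutation p = 0.1). By contrast, Smad7 to Smad3 was 1.16 ± 0.106 in Tespa1+/+ and 1.12 ± 0.03 in Tespa1-/- LSKs (SD, n = 3 each, exact permutation p = 0.6), and the groups overlapped. Smad4 to Smad2 overlapped as well (exact permutation p = 0.2). A change in the balance of Smad7 to Smad3 was thus not detected with 3 libraries per group.

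**Figure D3:**
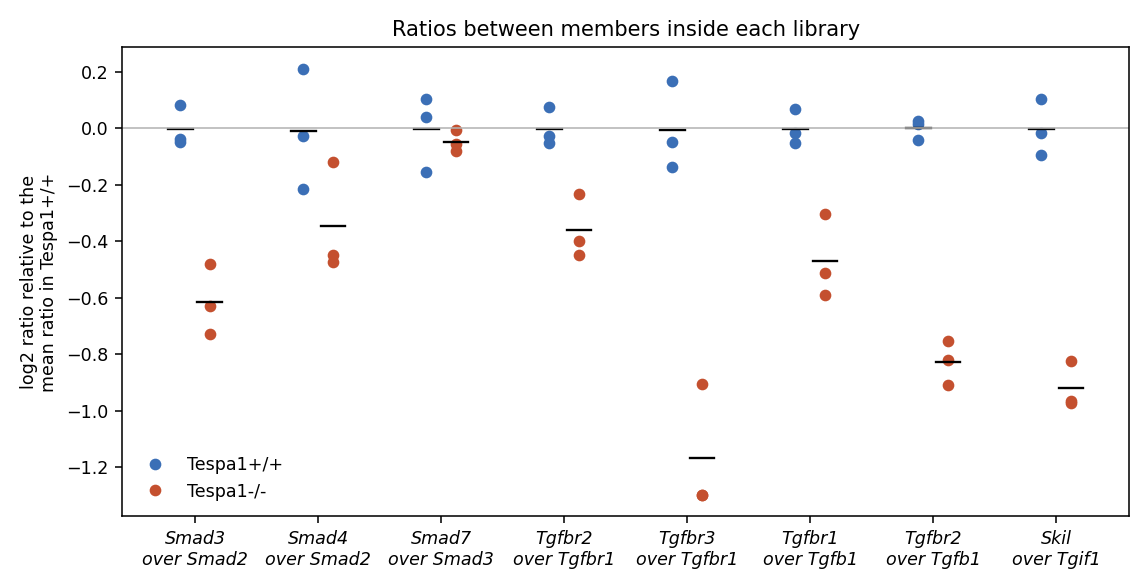
Log2 of each ratio of members relative to the mean ratio in Tespa1+/+, from levels in CPM per kb of union exon within each of 3 Tespa1+/+ (blue) and 3 Tespa1-/- (red) libraries. Lines are group means of the log2 values. The groups are separate in 6 of the 8 ratios and overlap for Smad7 over Smad3 and Smad4 over Smad2.

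Fold change followed gene length across the whole data set, and most members are long. Over the 10135 genes whose mean log2 CPM exceeded 3, union exon length and log2 fold change had a Spearman's rho of -0.61, which is given as a description because genes do not stand in for replicates. Medians of the log2 fold change ran from 0.64 in the shortest decile of genes (60 to 1237 bases) to -0.56 in the longest (9851 to 123179 bases). The union exon lengths of the members ranged from 3712 bases (Smad4) to 9694 bases (Skil). What moved fold change with length was not tested. Against the median of genes in their own length decile, 9 of the 10 members were lower. Tgfbr3 lay 1.58 below it on the log2 scale, Skil 1.05, Smad7 0.79, Tgfbr2 0.68, Smad3 0.65, Smad4 0.58, Tgfbr1 0.43, Tgif1 0.36 and Tgfb1 0.18, whereas Smad2 lay 0.19 above it.

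When the length trend was removed by offsets in the same test, 4 of the 10 members were still called lower, against 14.2% of all genes. These were Tgfbr2 (log2 fold change -0.61, edgeR adjusted p = 0.000175), Tgfbr3 (-1.505, adjusted p = 5.87e-05), Smad7 (-0.69, adjusted p = 0.000186) and Skil (-0.90, adjusted p = 0.000348). Tgfbr1 (-0.36, edgeR adjusted p = 0.00116) and Smad3 (-0.54, adjusted p = 6.92e-05) remained lower but did not reach the fold required for a call. With any fold, 8 members were lower at an adjusted p under 0.05, against 24% of all genes. Tgfb1 came to -0.01 on the log2 scale (edgeR adjusted p = 0.821). Smad2 changed direction, to a log2 fold change of 0.29 (edgeR adjusted p = 0.00679), so no direction is given for it. The median of the 10 members was -0.50 after length correction, where that of all genes was 0.07, and with total counts in place of TMM scaling it was -0.82, where that of all genes was -0.10.

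**Figure D4:**
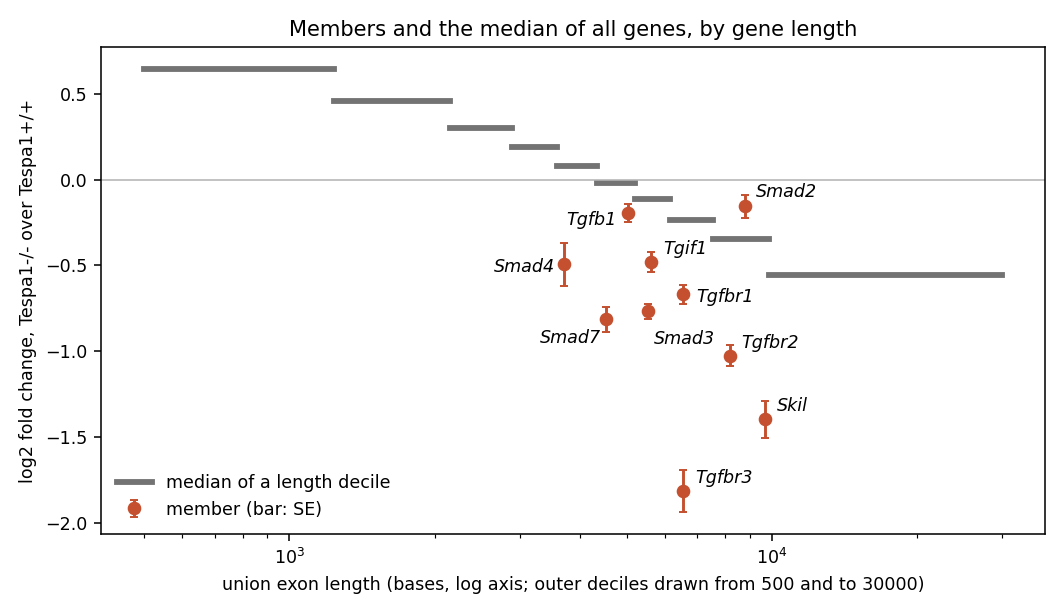
Log2 fold change in Tespa1-/- over Tespa1+/+ LSKs against union exon length (bases, log axis, with the outer deciles cut short). Grey bars are the median of all genes in each length decile and points are the 10 members with their SE. Smad2 lies above the median of its decile and the other 9 members lie below theirs.

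Subsequently, 70 further genes of the pathway were examined in 7 lists. Of these, 54 were tested, 21 fell, 0 rose and 33 were not called, against 19.2% of all genes called lower and 14% called higher. The median log2 fold change was -0.46. With DESeq2, or with edgeR at an unadjusted p under 0.05 and the same fold, 0 were higher as well. Among the 52 with at least 10 counts in every library, 20 fell and the median was -0.46. Without regard to the fold, 35 were lower and 5 higher at an adjusted p under 0.05, where 31.8% of all genes were lower and 31.5% higher. The groups did not overlap in 34 genes that were lower and 7 that were higher, while 34.6% of all genes were separate in the downward and 34.5% in the upward direction. After length correction 14 were called lower, against 14.2% of all genes. These were 13 of the 21 and Junb, while Ltbp3, Furin, Bmpr2, Wwp1, Ski, Zeb1, Zeb2 and Rnf111 lost their calls. The direction of 7 genes changed with this correction, and 4 of these (Nedd4l, Usp4, Usp15 and Ncor1) were then higher at an adjusted p under 0.05. Also higher at that threshold after correction were Smad1 (0.43), Bambi (0.34), Strap (0.21), Dab2 (0.86) and Tgfbi (0.53), whose log2 fold changes lay above 0 before it too.

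Of 13 genes for ligands and the latent complex, 6 were tested and 4 fell, where 19.2% of all genes were called lower. Ltbp3, a latent TGF-beta binding protein, went from 29.0 ± 3.61 to 14.1 ± 1.24 CPM (SD, n = 3 each), a log2 fold change of -1.04, which came to -0.58 and short of a call after length correction. Thbs1, thrombospondin 1, which can release TGF-beta from its latent form, fell by 0.94 on the log2 scale (SE 0.089, edgeR adjusted p = 8.79e-05). Furin, a protease that cleaves the TGF-beta precursor, fell by 0.63 on the log2 scale, but its value after length correction was -0.16 (edgeR adjusted p = 0.217), and without Tespa1-/- replicate 3 it was -0.51 and no longer called. The fourth was Ltbp4, at under 1 CPM in every library. Itgav, an integrin chain that activates latent TGF-beta, and Nrros, which tethers it to the surface of myeloid cells, overlapped between groups and were not called (log2 fold changes -0.90 and 0.37). Without Tespa1-/- replicate 3, Itgav was called lower at -1.61, and without wild-type replicate 2, Nrros was called higher at 0.74.

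Of 11 other receptors of the superfamily, 8 were tested and 5 fell, where 19.2% of all genes were called lower. Eng (endoglin), a co-receptor for TGF-beta and BMP ligands, had 70.9, 78.5 and 78.6 CPM in Tespa1+/+ and 36.3, 38.0 and 39.9 CPM in Tespa1-/- libraries. Its log2 fold change was -0.998 (SE 0.061, edgeR adjusted p = 1.07e-05), and -0.92 after length correction. The BMP type II receptor Bmpr2 fell by 1.12 on the log2 scale (edgeR adjusted p = 4.43e-06), and its value was -0.35 and no longer called after length correction. The activin receptor Acvr2a (-0.96, edgeR adjusted p = 0.000784) and the type I receptor Acvr1 (-0.81, adjusted p = 0.00726) also fell. The type I receptor Acvr1b (-0.46) and the pseudoreceptor Bambi (0.16) were not called.

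Of 7 other Smads and partners, 4 were tested and 1 was called lower, as were 19.2% of all genes. The called gene was the inhibitory Smad6, at 2.69 ± 0.547 CPM in Tespa1+/+ and 1.66 ± 0.419 CPM in Tespa1-/- LSKs (SD, n = 3 each). Its log2 fold change was -0.69 (SE 0.257, edgeR adjusted p = 0.0494), and the call was lost when any 1 library other than wild-type replicate 2 was left out, with adjusted p between 0.0588 and 0.154. It was also lost with DESeq2 (adjusted p = 0.127). Smad5, a transducer of BMP signals, overlapped between the groups (log2 fold change -0.16).

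All 12 genes of turnover and feedback were tested and 4 fell, where 19.2% of all genes were called lower, with a list median of -0.43. Smurf1, a ubiquitin ligase that targets Smads and receptors, fell by 1.16 on the log2 scale (SE 0.173, edgeR adjusted p = 0.000826). Ldlrad4, which hinders access of Smad2 and Smad3 to the receptor, fell by 0.91, although 2798 bases of its exons overlap Fam210a on the opposite strand. The deubiquitinase Usp11 (-0.89) and the ubiquitin ligase Wwp1 (-0.86) also fell, although Wwp1 came to -0.55 and lost its call after length correction. The ubiquitin ligase Nedd4l (-0.40) and the deubiquitinases Usp4 (-0.25) and Usp15 (-0.21), named after their values were seen, were lower at an adjusted p under 0.05 with any fold. All 3 were higher after length correction, at 0.36, 0.20 and 0.52 on the log2 scale (edgeR adjusted p = 0.00349, 0.0137 and 0.000789). The receptor-binding proteins Strap (0.25) and Fkbp1a (0.16) were not called.

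All 7 other corepressors and regulators of their turnover were tested and 4 fell, with a list median of -0.62. Of all genes tested, 19.2% were called lower. Ski, the closest relative of Skil, went from 58.9 ± 1.51 to 35.9 ± 2.15 CPM (SD, n = 3 each), a log2 fold change of -0.71 (edgeR adjusted p = 4.06e-05), which came to -0.48 after length correction. Rnf111, a ubiquitin ligase that degrades Ski and SnoN, fell by 0.69 on the log2 scale, and its value was -0.24 after length correction. The Smad-binding zinc finger factors Zeb2 (-1.16) and Zeb1 (-0.62) fell too, and came to -0.34 and -0.10 after length correction, so that none of the 4 kept its call there. Zeb1 lost its call without wild-type replicate 2 (-0.50), Tespa1-/- replicate 1 (-0.57) or Tespa1-/- replicate 2 (-0.57). Ncor1 (-0.40) and Sin3a (-0.26), scaffolds of corepressor complexes, were not called. In the branch that runs through the kinase encoded by Map3k7, 0 of 5 genes were called by edgeR and none of the 5 reached the fold. Of these, 4 lay below 0 and Dab2 was at 0.50. With any fold, Tab1 (-0.47), Tab2 (-0.39) and Traf6 (-0.55) were lower and Dab2 was higher, and with length correction Dab2 was called higher at 0.86.

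**Figure D5:**
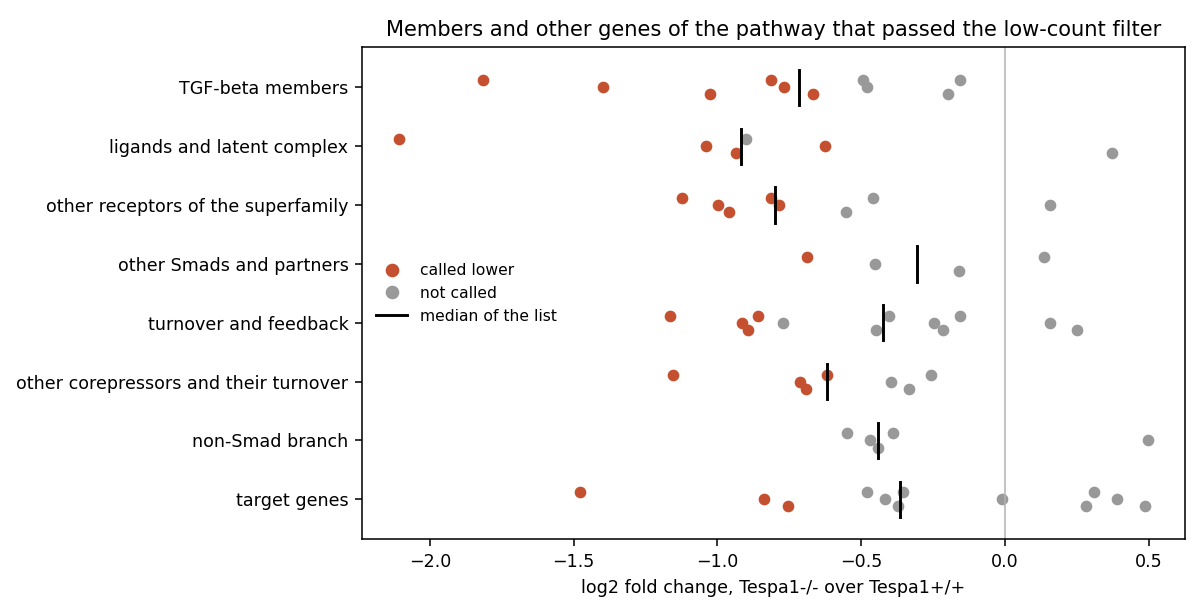
Log2 fold change of the 10 members and of the 54 tested genes in 7 other lists of the pathway, with 1 point per gene. Red points were called lower in Tespa1-/- LSKs, grey points were not called, and black bars are list medians. Each list median lies below 0, and no gene was called higher.

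Of 15 genes known as TGF-beta targets, 12 were tested, 3 fell and 0 rose, where 19.2% of all genes were called lower, with a median log2 fold change of -0.36. Tsc22d1, a transcriptional regulator first isolated as TGF-beta inducible, had 126, 119 and 167 CPM in Tespa1+/+ and 43.0, 62.8 and 41.9 CPM in Tespa1-/- libraries. All Tespa1-/- values were under the lowest wild-type value. Tsc22d1 fell by 1.48 on the log2 scale (SE 0.19, edgeR adjusted p = 0.000395). Klf10, an early response gene of TGF-beta, fell by 0.84 on the log2 scale (SE 0.054, edgeR adjusted p = 1.31e-05). Atf3, a stress-responsive factor that partners with Smad3, fell by 0.76. The AP-1 subunit Junb (-0.48) was not called, nor was Cdkn1a (-0.36), the p21 cell cycle inhibitor, whose groups overlapped. Tgfbi (0.49), Id1 (0.39) and Gadd45b (0.31), chosen after their values were seen, were higher at an adjusted p under 0.05 with any fold, while 5 targets, the 3 called genes with Junb and Bhlhe40 (-0.42), were lower. After length correction Id1 (0.08, edgeR adjusted p = 0.384) and Gadd45b (0.08, adjusted p = 0.404) no longer passed, Tgfbi was at 0.53 (adjusted p = 0.00055) and Junb was called lower at -0.61 (adjusted p = 4.28e-05).

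Markers of the cell populations in the sort moved alongside these genes. The summed level of 8 stem cell markers ranged from 78.7 to 90.9 CPM in Tespa1+/+ and from 28.8 to 30.6 CPM in Tespa1-/- libraries. Of the 8, 7 fell, where 19.2% of all genes tested were called lower. Their sum was 35.5% of the wild-type level, while the 10 members ranged from 28.4% (Tgfbr3) to 89.8% (Smad2). In such bulk samples, fewer cells of a type and less RNA per cell cannot be told apart. The 3 markers of multipotent progenitors summed to 60.0% of wild type, and 2 of them fell. The marker sums were not corrected for length. After length correction the 7 stem cell markers stayed called, between -2.585 (Fgd5) and -0.884 (Hlf) on the log2 scale. Of the progenitor markers that fell, Flt3 (-0.726) stayed called and Cd34 (-0.409) did not. Of 10 neutrophil and granule genes, 9 rose, where 14% of all genes tested were called higher. The sum of the 10 went from between 9470 and 10170 CPM to between 15410 and 15850 CPM. Most of that sum was Mpo, the gene not called (log2 fold change 0.48). Its level was 7524 ± 241 CPM in Tespa1+/+ and 10500 ± 36.7 CPM in Tespa1-/- LSKs (SD, n = 3 each). Ngp, a granule protein gene, was at 0.165 to 0.337 CPM in Tespa1+/+ and at 71.4 to 72.6 CPM in Tespa1-/- libraries.

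For the marker counts that follow, the shares over all genes tested were 19.2% called lower and 14% called higher. The 7 markers of monocytes and macrophages summed to 95.8% of wild type (1 rose and 1 fell of 4 tested). After length correction neither of these was called (Cd14 at 0.462 and Csf1r at -0.403 on the log2 scale). Those of B and plasma cells, 6 in number, summed to 214% (2 rose and 2 fell of 5 tested). Most of that sum was Igha, which rose from 216.9 ± 2.65 to 499.1 ± 17.6 CPM (SD, n = 3 each). For megakaryocytes and platelets the 6 markers summed to 80.5% (2 fell of 5 tested). Most of this sum was Itga2b, which was not called (log2 fold change -0.28). The 5 erythroid markers summed to 23.3 ± 0.25 CPM in Tespa1+/+ and 44.3 ± 1.72 CPM in Tespa1-/- LSKs (SD, n = 3 each), with 2 called higher and 1 lower of 4 tested. The 5 T cell markers summed to 3.27 ± 0.0955 and 1.49 ± 0.11 CPM in the same order (SD, n = 3 each, 2 of 2 tested fell). Stroma and endothelium summed to 67.0% of wild type (1 of 2 tested fell). Nearly all of that sum was Pecam1, which was not called, at 107.6 ± 3.03 CPM in Tespa1+/+ and 72.7 ± 2.92 CPM in Tespa1-/- LSKs. The gene that fell, Cdh5, was at 2.07 ± 0.571 and 0.475 ± 0.058 CPM in the same order (SD, n = 3 each). Ms4a1, Ppbp, Lepr, Mertk and Cd3e had 0 counts in all Tespa1-/- libraries, but were near the floor in Tespa1+/+ too and were not tested. Their wild-type counts were 2, 0 and 3 (Ms4a1), 5, 5 and 3 (Ppbp), 2, 0 and 3 (Lepr), 5, 5 and 2 (Mertk), and 8, 7 and 4 (Cd3e). The part of the cell makeup in the lower levels of the TGF-beta members was not tested.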

How the data were processed

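Per the labels, poly-A RNA was made into stranded paired-end libraries and sequenced on a NovaSeq instrument. The submitters' processing notes name CASAVA 1.8, HISAT2, StringTie, edgeR and GRCm38. The use of strand in counting is not given in the sources used here. The authors deposited 1 table with a raw count and an FPKM value per gene and library. FPKM values were used only in alternatives and in a comparison of member levels. Positions and exons were taken from GENCODE M21 (GRCm38), where 55227 of the 55487 genes were found.

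Low counts were removed with filterByExpr, TMM factors were used for scaling, and all 6 libraries were tested with edgeR 4.0.16 in R 4.3.3 (quasi-likelihood F-test, no covariates, Benjamini-Hochberg adjustment over 15332 genes). The SE of a log2 fold change was derived from the change and its F statistic. Length correction used loess offsets (span 0.5) on union exon length, known for 99.92% of the genes tested. Ratios were compared with exact permutation tests. Within groups, libraries differed by more than sampling noise. Scripts were tested on simulated data. With a depth of at least 12856630 counts per library, counting error is small for members with high counts such as Tgfb1. It grows for genes with few counts. Of the members, Tgfbr3 (175, 112 and 102) and Skil (138, 105 and 109) had the lowest counts in Tespa1-/- libraries. Since the reads carry no molecular identifiers, this concerns counting error only.

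The members, lists and tests were chosen with earlier results of these data known. Named genes were the 10 members, Tespa1, from each list up to 4 called genes with the largest change and at least 1 CPM, and up to 2 genes not called with the highest level. Further names were chosen after their values were seen. Alternatives were RLE factors, total counts, other filters, DESeq2 1.42.0, glmTreat, a replicate block, each library left out in turn, limma-trend 3.58.1 on log2(FPKM + 1) and log2(FPKM + 0.1), length corrections, the cutoff of the study (fold over 1.5, unadjusted p under 0.05) and any fold.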

Additional observations from a re-analysis of the deposited data

How the results depend on the processing

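Of the 10 members, 6 were called lower. With any fold the count was 9 and with total counts 7 (Smad4 added). Length correction on union exon length left 4 and that on the length implied by FPKM 5, glmTreat 5 (Tgfbr1 lost, edgeR adjusted p = 0.119), and limma-trend on FPKM 5, since Skil did not pass the filter on FPKM. Leaving out any 1 library kept 6. Tgfbr2, Tgfbr3 and Smad7 were called under all 21 alternatives, with Tgfbr3 between -1.95 and -1.29 on the log2 scale. The median of the members was -0.82 with total counts, -0.61 with limma-trend on log2(FPKM + 1), -0.60 with the same and no filter, -0.50 with length correction on union exon length, -0.54 with the implied length and -0.53 with the implied length and the replicate block. Without that filter, Skil came to -0.58 and lost its call. Other pathway genes called lower numbered 21, and 13 with glmTreat, 14 with length correction on union exon length, 17 and 15 with the implied length without and with the block, 14 with limma-trend on log2(FPKM + 1) and 35 with any fold. Those called higher numbered 1 with either length correction (Dab2), 2 with the implied length and replicate block (Dab2 and Nrros), 5 with any fold and from 0 to 1 when a library was left out (Nrros, without wild-type replicate 2). Among the genes followed through every alternative, length correction changed the direction of Smad2 (0.29, and 0.15 with the implied length, with and without the block), Trim33 (0.049, 0.043 and 0.042), Smad5 (0.21, 0.29 and 0.23) and Ncor1 (0.23, 0.25 and 0.24, the last with the block). On union exon length it also changed that of Nedd4l (0.36), Usp4 (0.20), Usp15 (0.52) and Ppm1a (0.47). When single libraries were left out, Smad5 ranged from -0.43 to 0.11 (above 0 without Tespa1-/- replicate 3) and Fkbp1a from -0.26 to 0.51 (below 0 without Tespa1-/- replicate 1 and, at -0.004, without wild-type replicate 1). The cause of these changes was not tested.

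Deviations of same-numbered libraries from their group means correlated at 0.0409, -0.0196 and 0.163. Libraries of unlike number were not compared in this way, so these values cannot decide if the replicate numbers pair the samples. With the replicate block, 6 members and 21 other pathway genes were called lower, and among the latter Smad6 lost its call (adjusted p = 0.0787) and Itgav gained one (adjusted p = 0.00721). Low-count genes such as Tgfb2 and Tgfb3 are limited by depth.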
